A study of Drosophila melanogaster with 25 samples.

Results

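The Cpr genes of Drosophila melanogaster were taken as every gene whose symbol is Cpr followed by a digit, in the 2 deposited tables of RNA-seq counts. There were 70 such genes among 17208 in each table. The gene named Cpr without a digit, which encodes the P450 reductase, does not match and was not included. The series compares RNA after gain and after loss of function of fat (ft), which encodes an atypical cadherin of growth control and planar cell polarity. FtICD libraries came from a ubi-Gal4; UAS-FtICD-3xFLAG stock, in which the ubiquitous ubi driver expresses the Fat intracellular domain with a FLAG tag. Tissues were embryos collected at 16 to 20 h (4 libraries), and wing imaginal discs (3) and eye-brain complexes (3) of third-instar larvae. Each was set against w1118 animals of the same tissue and the same labelled age or instar, with 4, 3 and 2 libraries. The ft null libraries came from eye-brain complexes of ft fd5-5/ftX13 larvae (3) and were set against w1118 complexes of their own table (3). All animals were kept at 25 C. For the w1118 controls the labels name neither driver nor transgene, so effects of ubi-Gal4 and of FtICD cannot be told apart. The w1118 animals were of another stock than the FtICD and ft null animals. Other differences between these stocks cannot be told apart from gain or loss of ft. The labels give no finer embryo or larval stage, no sex and no number of animals per library. Developmental timing within these stages therefore cannot be told apart from genotype. The labels number the replicates without saying how they were drawn, so p-values measure the spread between these libraries.

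CPR proteins are structural proteins of the insect cuticle that carry the Rebers and Riddiford consensus, a stretch that binds chitin. Epidermal cells, and other ectodermal cells such as those of the trachea, secrete them into the apical matrix, where they assemble with chitin fibres. Late Drosophila embryos lay down the cuticle of the hatching larva, while imaginal discs inside the feeding or wandering larva have yet to make adult cuticle. The number and letter in a Cpr symbol give its band on the polytene chromosome map, and lower-case letters separate neighbours within a band.

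All 70 genes were placed in the Ensembl release 115 annotation (BDGP6.54, which has dm6 coordinates), with 35 on 3L, 21 on 2R, 5 on 2L, 5 on 3R and 4 on X. Bands with at least 2 members numbered 12 and held 49 genes, and 21 genes stood alone in their band. The clusters with the most members were 49A with 8 genes over 38.5 kb (2R, 12376626 to 12415170), and 47E and 65A with 7 each. Cluster 47E spanned 26.7 kb (2R, 11251751 to 11278445). Cluster 65A spanned 30.3 kb (3L, 6131242 to 6161589) and was interleaved with 10 other cuticle protein genes of the Lcp65A and Acp65A series. Cluster 64A had 4 genes within 8.58 kb (3L, 4207838 to 4216414), and cluster 67F had 3 genes within 4.70 kb (3L, 10889990 to 10894693).

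The targeted gene checked the FtICD labels. ft was at 1129 to 1515 CPM (counts scaled for depth, on TMM-scaled library sizes) in FtICD embryos, against 24.8 to 36.3 CPM in wild-type embryos, and was as clearly apart in the wing and eye-brain libraries. In ft null complexes ft was at 160 to 183 CPM, against 110 to 123 CPM in their wild type, so RNA counts do not test that label. Libraries held 15016563 to 54256664 counts. The 5 wing disc markers summed to 896 to 1173 CPM in wing disc libraries and 292 to 613 CPM in eye-brain libraries, and the 5 eye markers to 297 to 496 CPM in eye-brain and 1.83 to 3.88 CPM in wing disc libraries. Ribosomal RNA took 12.1 to 16.2% of counts in FtICD embryos and 4.22 to 6.02% in wild-type embryos. FtICD eye-brain replicate 3 stood apart, with 5190 CPM summed over 5 fat body markers and 9431 CPM over 5 salivary gland markers, against at most 90.4 and 33.8 CPM in the 2 wild-type complexes of the FtICD set. In the wild-type complexes of the ft null set they reached 342 and 48.98 CPM.

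Cpr RNA was far more abundant in embryos than in the larval tissues. In wild-type embryos the 70 genes summed to 16817 ± 1429 CPM (SD, n = 4), against 469 ± 55.2 CPM in wild-type wing discs (n = 3) and 137 ± 1.68 CPM in wild-type eye-brain complexes (n = 2). Of the 46 members that reached 5 CPM in at least 1 of these wild-type groups, 41 were highest in embryos, 5 in wing discs and 0 in eye-brain complexes. The other 24 stayed under 5 CPM in all 3. Between wild-type embryos and wing discs, 51 of 59 tested members were higher in embryos and 7 lower (edgeR's quasi-likelihood test, Benjamini-Hochberg adjusted p under 0.05), where 49.7% and 39.7% of all genes tested were called. Of these members 29 passed the count filter only through the embryo libraries. Of the 27 members with a mean of at least 10 counts in both tissues, 22 were higher in embryos and 4 lower. Against wild-type eye-brain complexes, embryos had 52 of 61 members higher and 6 lower, beside 44.7% and 39.9% of all genes, and 32 members passed only through the embryos. Of the 24 members with a mean of at least 10 counts in both, 17 were higher in embryos and 4 lower. Embryo libraries were sequenced on another instrument than the wing and FtICD-set eye-brain libraries, so stage, tissue and instrument cannot be told apart.

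**Figure D1:**
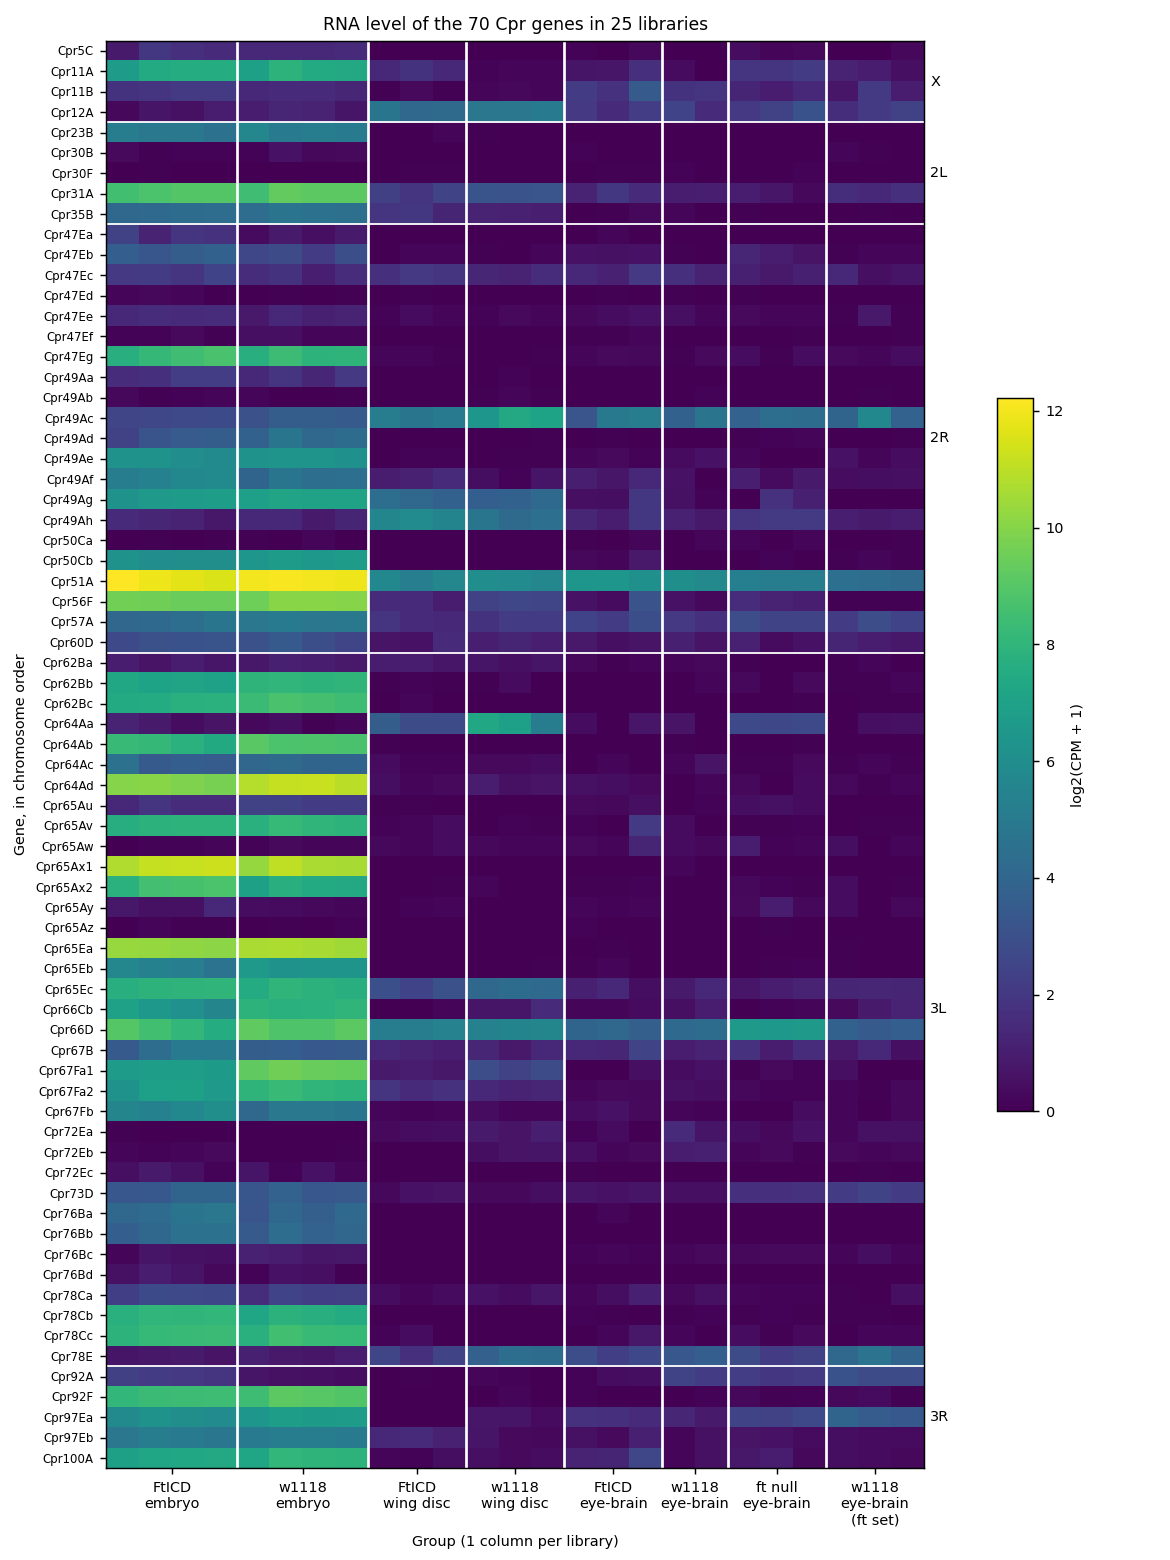
Level of each of the 70 Cpr genes in each of the 25 libraries, as log2(CPM + 1). Rows are genes in chromosome order, columns are libraries by group, and white lines separate groups and chromosome arms. Most rows are bright in the embryo columns alone, and 5 rows (Cpr12A, Cpr49Ac, Cpr49Ah, Cpr64Aa and Cpr78E) have a higher mean in wild-type wing discs than in wild-type embryos and in the wild-type eye-brain complexes of the FtICD set.

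Per kb of exon, Cpr51A (FBgn0033942) was the most abundant member in wild-type embryos, at 6391 ± 320 CPM per kb (SD, n = 4). Cpr65Ax1 followed at 4274 ± 921, Cpr65Ea at 2933 ± 194, Cpr64Ad at 2188 ± 230 and Cpr67Fa1 at 1204 ± 117 CPM per kb. The ranges of neighbours in this order did not overlap. Cpr64Ab at 834 ± 105 and Cpr56F at 773 ± 124 CPM per kb overlapped each other. Cpr65Ax1 and Cpr65Ea, abundant in embryos, had 0 counts over the 3 wild-type wing libraries. With 3 counts over the group taken as the floor, that is at least 74193-fold and at least 70582-fold higher in wild-type embryos than in wild-type wing discs. Cpr65Ax1 and Cpr65Ax2, and Cpr67Fa1 and Cpr67Fa2, are numbered as copies of each other, and 88.9%, 40.0%, 71.4% and 60.0% of their nonzero values were not whole numbers, so reads may be split between the copies and each single value is uncertain.

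Cpr51A was abundant in the larval tissues as well. Its level was 87.3 ± 10.6 CPM per kb in wild-type wing discs (n = 3) and 92.0 ± 13.4 in wild-type eye-brain complexes (n = 2), the FtICD-set group, where it was the most abundant Cpr gene. In the wild-type complexes of the ft null set it was at 30.0 ± 2.48 CPM per kb, beside 38.8 ± 11.5 for Cpr78E (n = 3), on the scale of that table. Between wild-type discs and the FtICD-set complexes Cpr51A did not pass the test (log2 fold change wing disc over eye-brain -0.12 ± 0.14 SE, adjusted p = 0.52). In wild-type wing discs Cpr64Aa reached 103 ± 62.5 CPM per kb, with libraries at 159, 120 and 35.4 CPM. It was all but absent from wild-type embryos, where its 4 libraries stayed under 1 CPM. Cpr49Ac was at 60.5 ± 19.5, Cpr66D at 40.1 ± 3.55, Cpr78E at 37.1 ± 8.63 and Cpr12A at 33.9 ± 2.54 CPM per kb in wild-type discs, and the ranges of the last 3 overlapped. Of wild-type disc genes set against wild-type eye-brain complexes, 14 of 33 tested members were higher and 3 lower (Cpr11B, Cpr49Ae and Cpr92A), beside 22.4% and 30% of all genes tested. The 3 lower calls had a mean under 10 counts in wing discs. With a mean of at least 10 counts in both tissues, 10 members were higher and 0 lower of 24.

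In embryos, single Cpr genes differed in both directions between FtICD and wild type, and the family total was lower in FtICD. Of 59 tested members 13 were higher and 21 lower in FtICD than in wild-type embryos, which is 22.0% and 35.6%, beside 26.7% and 25.8% of all 11422 genes tested. The median log2 fold change was -0.12 over these members and -0.00 over all genes. Changes of at least 2-fold were called in 8 members upward and 7 downward, beside 6.22% and 4.9% of all genes. The groups did not overlap in 27 of the 59 tested members (all of them called), beside 48.4% of all genes. The family sum was 13525 ± 504 CPM in FtICD embryos (12899 to 13988) and 16817 ± 1429 CPM in wild-type embryos (15249 to 18605; SD, n = 4 each), ranges that did not overlap. The 8 most abundant members made up 74.1% of the sum in FtICD and 72.6% in wild-type embryos, so it mainly follows few genes. Cpr51A, which took 27.8% of the Cpr counts of FtICD embryos and 24.7% of those of wild-type embryos, was at 4786, 3914, 3333 and 3001 CPM in FtICD and at 4188, 4391, 4179 and 3885 CPM in wild-type embryos. Its groups overlapped and it did not pass (-0.11 ± 0.13, adjusted p = 0.52). In whole embryos fewer cells of a type and less RNA per cell cannot be told apart.

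With a mean of at least 10 counts in both groups, 12 members were higher and 20 lower of 55. Calls were also counted by abundance. Among the 23 members with a mean of at least 100 CPM over the 8 embryo libraries, 3 were higher and 12 lower in FtICD, with a median log2 fold change of -0.37. Of the 19 with 5 to 100 CPM, 5 were higher and 7 lower. Of the 28 under 5 CPM, 17 were tested, and 5 were higher and 2 lower, with a median of 0.42. Calls at these levels, or with a mean of at least 10 counts in both groups, were not counted over all genes. Whether the order by abundance is particular to Cpr genes was therefore not tested. The lowest fold change was in the abundant Cpr67Fa1, and the highest in Cpr92A, a gene of a few CPM.

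**Figure D2:**
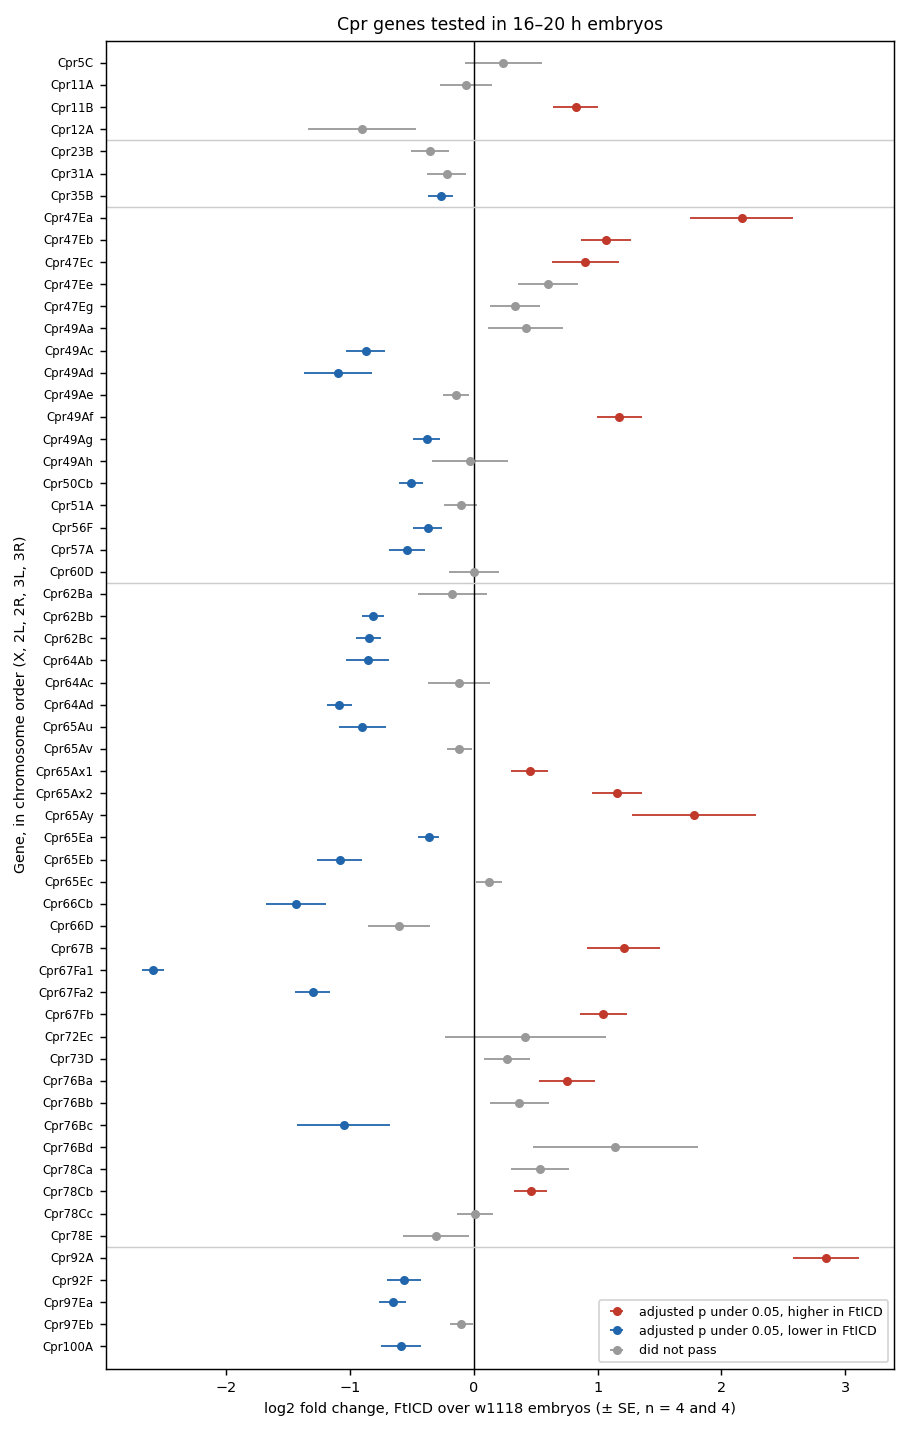
Log2 fold change of FtICD over wild-type (w1118) embryos for the 59 tested Cpr genes, in chromosome order, with bars of 1 SE (n = 4 and 4). Red and blue points passed at an adjusted p under 0.05 and grey points did not. Cpr67Fa1 lies lowest, at -2.59, and Cpr92A highest, at 2.84.

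Cpr67Fa1 (FBgn0036108) had the lowest fold change of all members. Its libraries were at 104, 113, 114 and 101 CPM in FtICD embryos, against 595, 752, 669 and 651 CPM in wild-type embryos. The groups lay far apart, each within a narrow band. Its neighbour Cpr67Fa2 (FBgn0036109) was at 75.2, 117, 124 and 92.6 CPM in FtICD, against 245, 297, 254 and 235 CPM in wild type, again with no overlap (-1.30 ± 0.14, adjusted p = 3.6e-05 by edgeR). The third gene of the cluster, Cpr67Fb (FBgn0036110), went the other way. It was at 45.5, 40.8, 50.7 and 64.8 CPM in FtICD and at 16.3, 28.5, 29.0 and 26.3 CPM in wild type (1.05 ± 0.19, adjusted p = 9.1e-04). These 3 genes sit on the same strand within 4.70 kb with no other protein-coding gene between them. Exons of Cpr67Fb overlap the antisense RNA CR45171 over 389 bases, and the library kit does not keep the strand, so reads of that pair cannot be told apart.

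Other abundant members were lower by smaller amounts. Cpr64Ad (FBgn0035513) was at 1014, 1076, 932 and 840 CPM in FtICD embryos, against 1838, 2251, 2314 and 2006 CPM in wild-type embryos, with the highest FtICD library well below the lowest wild-type one (-1.09 ± 0.10, adjusted p = 1.5e-05). Cpr64Ab, 2 genes away, was at 170 to 315 CPM in FtICD and at 415 to 545 CPM in wild type (-0.86 ± 0.17, adjusted p = 1.9e-03). Cpr64Ac between them did not pass (-0.12 ± 0.25), and Cpr64Aa was too low in embryos to be tested. Cpr66Cb, alone in its band, spread widely in FtICD, with 126, 89.7, 70.8 and 46.5 CPM, against 238, 214, 220 and 255 CPM in wild type. Its log2 fold change was -1.44 ± 0.24 (adjusted p = 6.2e-04). Cpr65Eb (-1.08 ± 0.18) and Cpr65Ea (-0.37 ± 0.08) were both lower, while Cpr65Ec next to them was at 204 to 251 CPM in FtICD and 185 to 258 CPM in wild type. Cpr62Bb (-0.82 ± 0.09) and Cpr62Bc (-0.85 ± 0.10) were lower by nearly the same amount. Cpr97Ea was at 55.0 to 73.6 CPM in FtICD and at 85.6 to 114 CPM in wild type (-0.65 ± 0.11, adjusted p = 5.3e-04).

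Cpr65Ax2, of the abundant members, and Cpr49Af, of those with 5 to 100 CPM, were higher. Cpr65Ax2 (FBgn0042118) was at 221, 385, 411 and 438 CPM in FtICD embryos, against 124, 199, 179 and 166 CPM in wild-type embryos. The lowest FtICD library was only just above the highest wild-type one (1.16 ± 0.20, adjusted p = 6.9e-04). Cpr49Af (FBgn0033729) was at 34.5, 39.8, 50.7 and 54.5 CPM in FtICD and at 14.5, 26.0, 20.1 and 20.7 CPM in wild type (1.17 ± 0.18, adjusted p = 3.3e-04). Its neighbours were not called higher. Cpr49Ae was at -0.14 ± 0.10 and did not pass, and Cpr49Ag was lower at -0.38 ± 0.11 (adjusted p = 0.011). Cpr67B was called higher (1.21 ± 0.30, adjusted p = 5.7e-03), although its groups overlapped, with 9.98, 20.0, 32.0 and 32.7 CPM in FtICD and 11.05, 11.6, 9.26 and 9.88 CPM in wild type. Cpr92A, a member near its detection limit in embryos, was at 3.92, 3.41, 3.09 and 2.55 CPM in FtICD and at 0.643, 0.448, 0.437 and 0.321 CPM in wild type (2.84 ± 0.26, adjusted p = 1.3e-05).

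**Figure D3:**
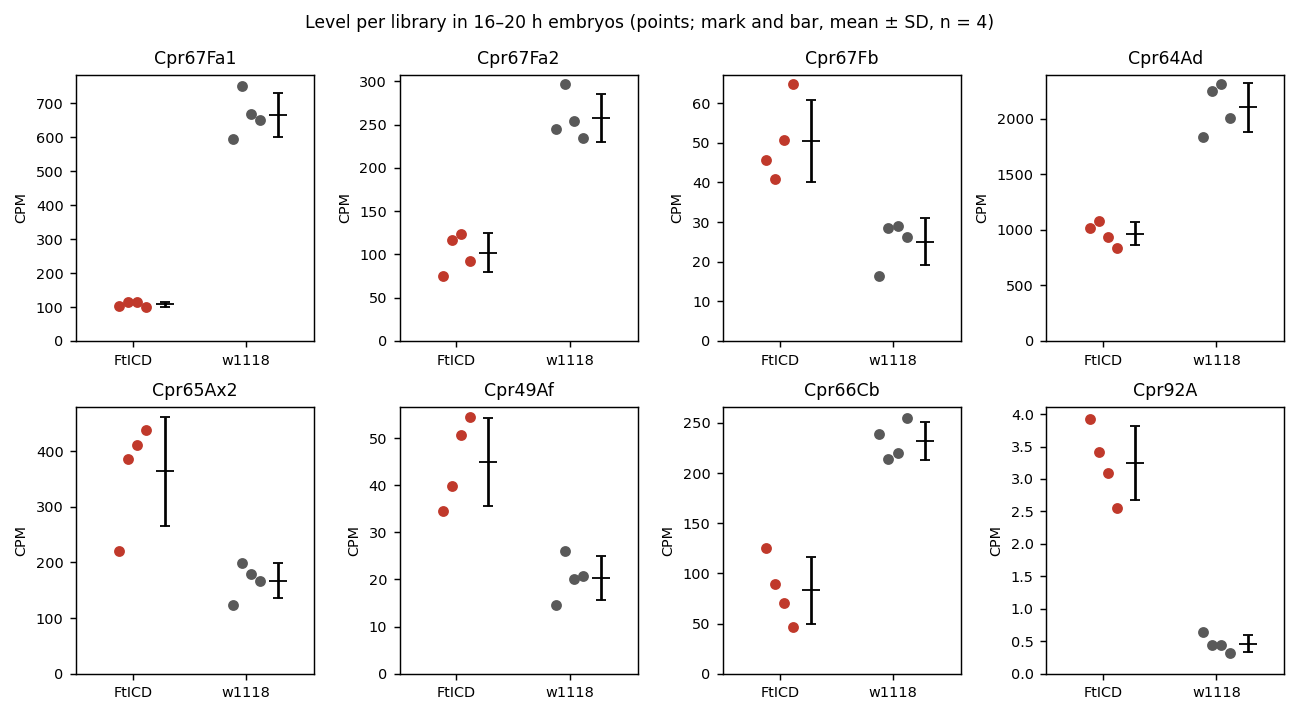
CPM of 8 Cpr genes in each embryo library, FtICD left and wild type (w1118) right of each panel, with the mean ± SD (n = 4) beside the points. Only Cpr67Fb, Cpr65Ax2, Cpr49Af and Cpr92A of these 8 are higher in FtICD, and the groups do not overlap in any panel.

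Position within a cluster was read against the embryo fold changes after the values had been seen, as a description. In cluster 47E all 5 tested genes had positive fold changes, 3 of them called higher, and the values of these 5 declined along the chromosome. Cpr47Ea was at 2.16 ± 0.41, Cpr47Eb at 1.07 ± 0.20, Cpr47Ec at 0.90 ± 0.27, Cpr47Ee at 0.60 ± 0.24 and Cpr47Eg at 0.33 ± 0.20 (log2 fold change ± SE), the last 2 not passing. Cpr47Ed did not pass the count filter. It lies between Cpr47Ec and Cpr47Ee, had 11 counts in FtICD and 2 in wild type, and was 5.85-fold higher. The exact 95% interval of 1.28 to 54.3 covers counting error only, and the decline holds for the tested members only. Only Cpr47Eg is abundant there, with 210 to 424 CPM in FtICD and 205 to 335 CPM in wild type, and exons of Cpr47Ea overlap those of the odorant receptor gene Or47a over 163 bases. In cluster 65A the 5 tested genes ran the other way along the chromosome. Cpr65Au was at -0.90 ± 0.19, Cpr65Av at -0.12 ± 0.10, Cpr65Ax1 at 0.45 ± 0.15, Cpr65Ax2 at 1.16 ± 0.20 and Cpr65Ay at 1.78 ± 0.50, with Cpr65Av not passing. Cpr65Au overlaps the antisense RNA CR46005 over 491 bases, and Cpr65Ay had only 79 counts in all of FtICD and 24 in all of wild type, 4 libraries each. Cpr65Az, which follows Cpr65Ay, was not tested, with 5 counts in FtICD and 3 in wild type. The call of Cpr65Ax1 was lost, at an adjusted p of 0.058 to 0.071, without any 1 of FtICD replicates 2, 3 and 4 or wild-type replicates 1, 3 and 4.

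Some of the Lcp65A genes interleaved with cluster 65A did not follow the order of its tested Cpr genes. They were picked after the values had been seen, and the others of the 10 interleaved genes are not described here. Lcp65Ag1 and Lcp65Ab2 are numbered as copies of Lcp65Ag2 and Lcp65Ab1, so reads may be split between copies. Between Cpr65Au and Cpr65Av, Lcp65Ag1 was higher (0.46 ± 0.16, adjusted p = 0.032) and Lcp65Af lower (-0.77 ± 0.24, adjusted p = 0.019), and between Cpr65Av and Cpr65Ax1, Lcp65Ad was lower (-0.80 ± 0.15, adjusted p = 1.4e-03) and Lcp65Ab2 higher (0.86 ± 0.18, adjusted p = 2.1e-03). In cluster 49A 1 gene was higher and 3 lower of 7 tested. In cluster 76B Cpr76Ba was higher and Cpr76Bc lower. The call of Cpr76Bc, at 39 counts in FtICD and 87 in wild type over 4 libraries each, was lost without any 1 of FtICD replicates 1, 3 and 4 or wild-type replicates 1, 2 and 4, at an adjusted p of at least 0.051.

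Over all clusters, 28 pairs of tested Cpr genes followed each other within a cluster, and 20 pairs (71.4%) had fold changes of the same sign. Other genes could lie between the 2 genes of a pair, as Lcp65A genes do between Cpr65Au and Cpr65Av. Among all 10636 neighbouring pairs of tested protein-coding genes 55.0% had. These had no other tested protein-coding gene between them, so the 2 shares are not of like pairs. Both genes were called in 10 Cpr pairs, 8 with the same direction and 2 with opposite directions, and in 3019 of all pairs, 1839 with the same direction and 1180 with opposite directions. The 8 pairs include Cpr67Fa1 with Cpr67Fa2 and Cpr65Ax1 with Cpr65Ax2, numbered as copies, whose reads may be split between them. The pairs of 1 cluster share genes, and no test was made of this count.

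**Figure D4:**
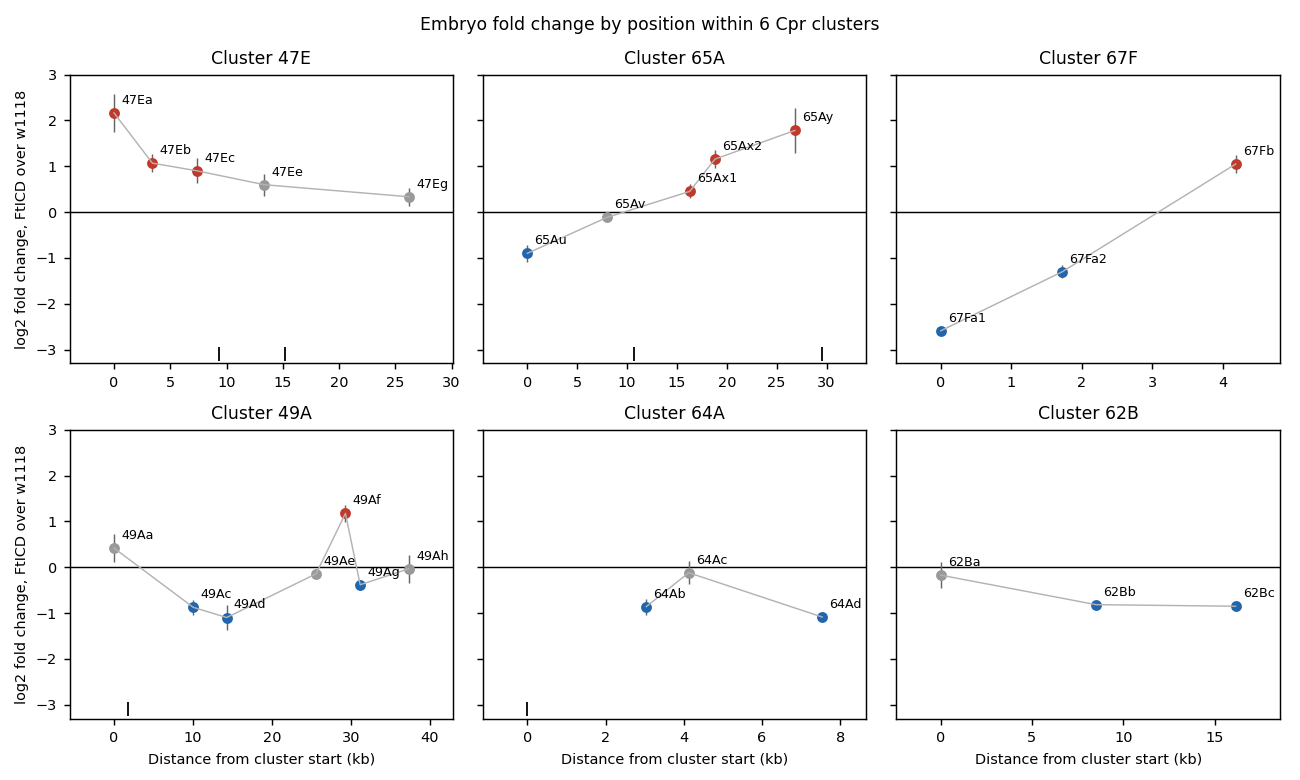
Log2 fold change of FtICD over wild-type embryos (y axis, ± SE) against distance in kb from the start of the cluster (x axis) for 6 Cpr clusters. Red and blue points passed, grey points did not, and short black ticks mark members that were not tested. The values of the tested members fall along 47E and rise along 65A and 67F, while Cpr49Af stands above its neighbours in 49A.

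The embryo libraries of 1 group differed among themselves in the Cpr genes. Of the 42 members with a mean of at least 5 CPM, FtICD replicate 1 was the lowest FtICD library for 25 and FtICD replicate 4 the highest for 22. For others FtICD replicate 1 was the highest (11 members) or FtICD replicate 4 the lowest (13). Wild-type replicate 1 was the lowest wild-type library for 27 and wild-type replicate 2 the highest for 30. Leaving out replicate 1 of both groups gave 14 higher and 25 lower members. Of other cell types, 5 muscle markers summed to 14677 to 18413 CPM in FtICD embryos and 21762 to 24455 CPM in wild-type embryos, with 2 called lower. The 5 neuron markers summed to 576 to 631 CPM in FtICD and 473 to 537 CPM in wild type, with 3 called higher. Tracheal markers (0 of 5 called) reached 5915 to 11033 CPM in FtICD and 8545 to 10693 CPM in wild type. Over FtICD replicates 1 to 4 they fell in order (11033, 9049, 7061 and 5915 CPM), as did the epidermal markers (766, 693, 640 and 615 CPM). In wild type neither sum ran in 1 direction. Epidermal markers summed to 615 to 766 CPM in FtICD and 677 to 752 CPM in wild type, with 1 of 5 called, grh, which encodes the Grainy head factor of epidermal barrier genes (-0.76 ± 0.09, adjusted p = 4.3e-05). Of 5 haemocyte markers 3 were called higher (64.5 to 85.8 CPM in FtICD and 69.2 to 75.8 CPM in wild type), as were 3 of 4 trunk Hox genes (251 to 276 CPM in FtICD and 191 to 217 CPM in wild type) and 3 of 5 wing disc markers (187 to 202 CPM in FtICD and 182 to 197 CPM in wild type). No marker was at 0 in these lists, and their part in the Cpr results was not tested.

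Genes that build the rest of the cuticle were given as lists beside the family. Of all genes tested in embryos 26.7% were called higher and 25.8% lower. Of 24 tested genes of chitin synthesis and organisation, 2 were higher and 9 lower in FtICD embryos. Gfat2 and Gnpnat, of the pathway that makes the chitin precursor, were lower (-0.56 ± 0.06, adjusted p = 4.6e-05, and -0.62 ± 0.09, adjusted p = 1.8e-04), and the chitin deacetylase gene Cda5 was higher (0.85 ± 0.14, adjusted p = 4.0e-04). Of 12 tanning and crosslinking genes 2 were higher and 0 lower (at an unadjusted p under 0.05 there were 3 in either direction), with ple, which encodes tyrosine hydroxylase, at 1.10 ± 0.14 (adjusted p = 9.1e-05). Of 15 genes of the apical matrix and denticles 1 was higher and 3 lower. The lowest was mwh, which limits hair number (-1.67 ± 0.09, adjusted p = 5.6e-07). Of 14 regulators of the ecdysone cascade 3 were higher and 1 lower, and of 7 ecdysone synthesis genes 1 was higher and 3 lower.

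In wing discs the changed Cpr genes were mostly lower in FtICD. Of 31 tested members 3 were higher and 11 lower, which is 9.68% and 35.5%, beside 7.67% and 9.97% of all 9416 genes tested, and the groups did not overlap in 21 of the 31, the 14 called among them, beside 39.5% of all genes. A mean of at least 10 counts in both groups was reached by 25 members, of which 2 were higher and 8 lower. The called members outside these 25 were Cpr11A, Cpr66Cb, Cpr72Eb and Cpr97Ea, each low in 1 group and tested only through the other. The family sum was 244 ± 17.8 CPM in FtICD discs (227 to 263) and 469 ± 55.2 CPM in wild-type discs (410 to 520; SD, n = 3 each). The differences in mean CPM were largest for Cpr64Aa and Cpr49Ac, the members with the highest mean CPM in wild-type discs.

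Cpr64Aa (FBgn0035510) was at 10.99, 6.20 and 6.13 CPM in FtICD discs, against 159, 120 and 35.4 CPM in wild-type discs. The wild-type libraries varied over more than 4-fold, and all 3 lay above all FtICD libraries (-3.75 ± 0.58, adjusted p = 6.5e-03). Cpr49Ac (FBgn0033725) was at 34.5, 25.9 and 32.3 CPM in FtICD, against 84.2, 166 and 134 CPM in wild type (-2.05 ± 0.25, adjusted p = 2.8e-03). Cpr78E (FBgn0037114) was at 4.94, 2.12 and 4.70 CPM in FtICD and at 12.6, 20.1 and 18.9 CPM in wild type (-2.13 ± 0.34, adjusted p = 7.6e-03). These 3 genes belong to the 5 that were highest in wild-type discs. Of the other 2, Cpr12A did not pass (-0.56 ± 0.19, adjusted p = 0.083), and Cpr49Ah (FBgn0033731) was higher. Cpr49Ah was at 48.3, 59.0 and 44.3 CPM in FtICD and at 26.0, 18.0 and 20.9 CPM in wild type, with a clear gap between the groups (1.22 ± 0.17, adjusted p = 4.4e-03). Cpr49Ac and Cpr49Ah, in the same cluster, thus moved in opposite directions.

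Cpr65Ec was lower in FtICD discs, at 6.93, 4.41 and 7.19 CPM against 16.2, 19.0 and 17.2 CPM in wild type (-1.50 ± 0.20, adjusted p = 4.2e-03). The lower calls also included Cpr31A (-1.11 ± 0.23), Cpr56F (-1.65 ± 0.28) and Cpr67Fa1 (-2.72 ± 0.27), the last at 0.701 to 0.989 CPM in FtICD and 4.12 to 6.53 CPM in wild type. Cpr97Ea had 0 counts in FtICD and 61 counts in wild type over 3 libraries each, at least 21.7-fold lower, with the same floor of 3 counts over the group. Cpr72Eb had 1 count in FtICD and 67 in wild type, 71.5-fold lower with an exact 95% interval of 12.4 to 2864 that covers counting error only. Cpr11A was higher at 1.63, 2.41 and 1.70 CPM in FtICD against 0.0803, 0.127 and 0.125 CPM in wild type (4.06 ± 0.38, adjusted p = 9.9e-04). Several calls were lost when 1 library was left out. The adjusted p of Cpr31A was 0.052 without wild-type replicate 1 and 0.056 without wild-type replicate 2, and that of Cpr97Ea was 0.054 without wild-type replicate 2. Over all alternatives the log2 fold change of Cpr31A stayed between -1.28 and -0.90. Cpr66Cb (-4.45 ± 0.91), at 6 counts in FtICD and 145 in wild type, lost its call without FtICD replicate 1 or 2 or wild-type replicate 3 (0.051 to 0.059). Without FtICD replicate 3 its value was -6.20. Cpr97Eb (2.12 ± 0.50) lost its call without FtICD replicate 1 or 2 or wild-type replicate 2 or 3 (0.069 to 0.102), and was at 2.83 without wild-type replicate 1. Cpr72Ea (-1.42 ± 0.38, adjusted p = 0.045) lost its call without any 1 of the 6 libraries (0.062 to 0.166), with log2 fold changes of -1.63 to -1.20.

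Markers moved beside these values. The 5 fat body markers summed to 62.5 to 1028 CPM in FtICD discs and 22.8 to 79.3 CPM in wild-type discs, with none at 0, and the 5 salivary gland markers to 3.01 to 21.6 CPM in FtICD and 30.9 to 59.5 CPM in wild type. Tracheal markers summed to 1615 to 1761 CPM in FtICD and 2079 to 2187 CPM in wild type. The 5 wing disc markers summed to 896 to 902 CPM in FtICD and 1052 to 1173 CPM in wild type, with 1 called lower and 0 higher. Of 13 tested regulators of the ecdysone cascade, the hormone response that times moulting, 1 was higher and 6 lower in FtICD discs, among them Eip78C (-2.24 ± 0.20, adjusted p = 7.2e-04). Of 22 chitin genes 4 were higher and 4 lower, with the chitinase genes Cht10 (-1.04 ± 0.09, adjusted p = 8.0e-04) and Cht5 (-1.18 ± 0.11, adjusted p = 8.1e-04) lower. Of 13 genes of the apical matrix and denticles 0 were higher and 6 lower. Of all genes tested in wing discs 7.67% were called higher and 9.97% lower. Their part in the Cpr results was not tested.

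In eye-brain complexes almost no Cpr gene was called between FtICD and wild type. Of 34 tested members 0 were higher and 1 lower by edgeR, beside 3.15% and 1.08% of all 10841 genes tested. At an unadjusted p under 0.05 there were 8 in either direction, beside 22.5% of all genes. DESeq2 called 3 higher and 4 lower of 43 members, and 1768 of 11646 genes. The called gene was Cpr92A (FBgn0038714), at 0.0929, 0.314 and 0.380 CPM in FtICD complexes, against 4.75 and 3.52 CPM in wild-type complexes (-3.94 ± 0.60, adjusted p = 0.038). Its groups lay clearly apart, but the call was lost without any 1 library other than FtICD replicate 3, at an adjusted p of 0.054 to 0.215. Cpr51A was at 85.3, 85.8 and 68.8 CPM in FtICD and at 66.0 and 53.7 CPM in wild type and did not pass (0.44 ± 0.14, adjusted p = 0.15). FtICD replicate 3, the library with high fat body and salivary gland markers, was alone in several values. Cpr56F was at 0.51, 0.29 and 7.80 CPM in the 3 FtICD complexes, and Cpr100A at 1.23, 1.43 and 5.05 CPM. Without replicate 3 the counts were again 0 higher and 1 lower.

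Between ft null and wild-type eye-brain complexes, single Cpr genes differed in both directions. Of 19 tested members 6 were higher and 5 lower in ft null than in their wild type, which is 31.6% and 26.3%, beside 23.5% and 21% of all 9978 genes tested. The groups did not overlap in 12 of the 19, beside 56.7% of all genes. Cpr56F and Cpr64Aa, both called higher, passed the count filter only through the ft null libraries, and of the other 17 members 4 were higher and 5 lower. The family sum was 198 ± 5.11 CPM in ft null complexes (193 to 202) and 121 ± 28.7 CPM in wild type (98.8 to 153; SD, n = 3 each). Cpr66D (FBgn0052029; 3L, 8640439 to 8643584) had the largest difference in CPM of all members. Without it the family summed to 106 ± 3.41 CPM in ft null (102 to 109) and 109 ± 29.8 CPM in wild type (87.1 to 143), ranges that overlapped. It was at 93.9, 90.4 and 93.0 CPM in ft null complexes, against 12.9, 10.1 and 11.7 CPM in wild type. Both groups were tight and about 8-fold apart (log2 fold change 3.001 ± 0.09, adjusted p = 3.1e-06).

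Cpr51A was higher in ft null, at 38.3, 34.7 and 34.6 CPM against 21.0, 19.8 and 17.8 CPM in wild type, with no overlap (0.88 ± 0.09, adjusted p = 3.3e-04). Cpr64Aa was at 5.41, 5.26 and 5.44 CPM in ft null, against 0, 0.416 and 0.467 CPM in wild type (4.16 ± 0.58, adjusted p = 1.2e-03). Cpr56F had 78 counts in ft null and 3 in wild type over 3 libraries each, 21.9-fold higher with an exact 95% interval of 7.21 to 108. That interval covers counting error only. By edgeR the log2 fold change of Cpr56F was 4.33 (adjusted p = 6.8e-04). Cpr49Ah (1.64 ± 0.25) and Cpr11A (1.68 ± 0.39) were higher as well, Cpr11A not without ft null replicate 3 (adjusted p = 0.051). Cpr49Ag did not pass the count filter, with 71 counts in ft null and 0 in wild type, at least 19.9-fold higher with that floor of 3 counts over the group. Since it did not pass, at least 1 of the 3 ft null libraries lay below the level of the filter. The bound pools the libraries and does not cover the spread between them.

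Cpr78E was lower, at 6.03, 3.30 and 4.37 CPM in ft null complexes against 15.9, 24.0 and 13.9 CPM in wild type (-1.98 ± 0.28, adjusted p = 1.2e-03). Cpr97Ea (FBgn0039480) was at 4.61, 4.36 and 5.44 CPM in ft null and at 14.6, 10.9 and 9.41 CPM in wild type, again without overlap (-1.27 ± 0.20, adjusted p = 1.8e-03). Cpr92A was at 3.69, 2.85 and 3.25 CPM in ft null and at 7.32, 6.06 and 6.14 CPM in wild type (-0.996 ± 0.18, adjusted p = 4.0e-03). Cpr31A (-1.77 ± 0.48) and Cpr73D (-0.78 ± 0.22) were the other lower calls. Cpr31A lost its call without ft null replicate 2 or wild-type replicate 1 or 3 (adjusted p = 0.055 to 0.059), and Cpr73D without any 1 of the 3 ft null replicates (0.064 to 0.081). Exons of Cpr73D overlap those of Ogdh over 294 bases. Leaving out ft null replicate 2 gave 3 lower members. Cpr49Ac varied most in wild type, with 14.3, 51.4 and 13.3 CPM against 13.5, 20.1 and 18.8 CPM in ft null, and did not pass.

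**Figure D5:**
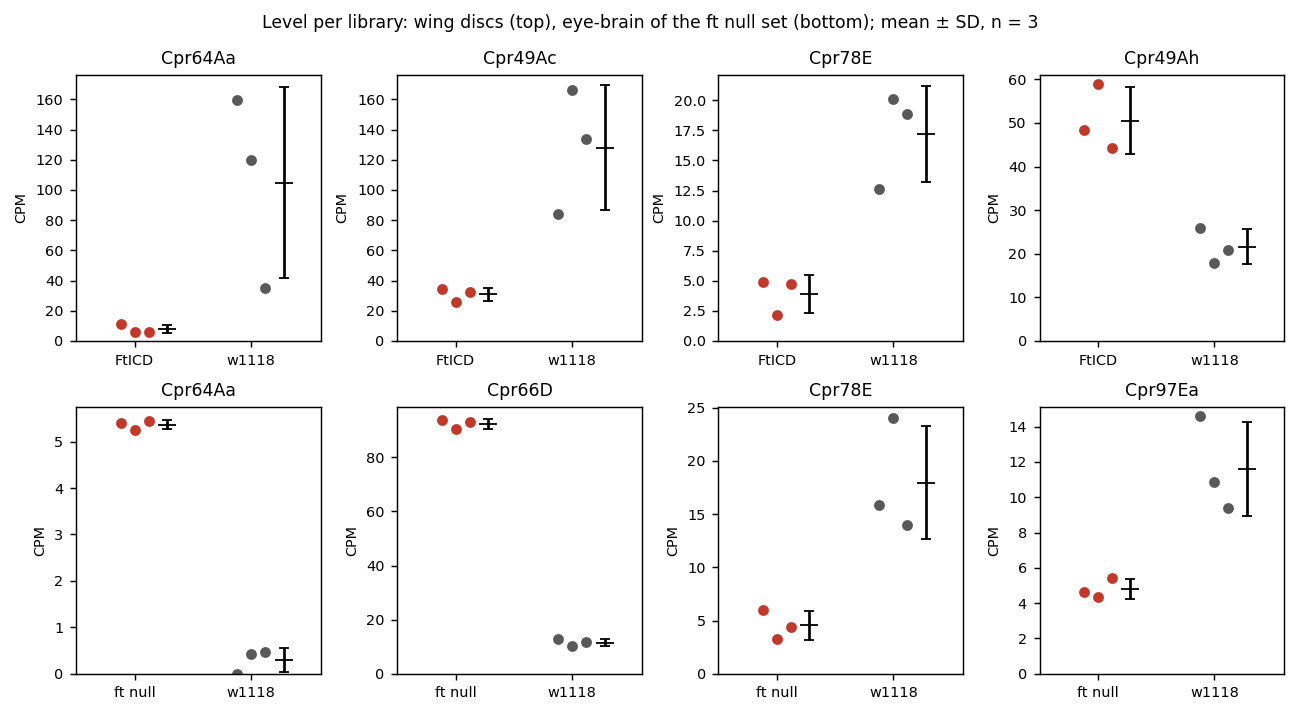
CPM per library in wing discs (top row, FtICD left and w1118 right) and in the eye-brain complexes of the ft null set (bottom row, ft null left and w1118 right), with mean ± SD (n = 3). Cpr64Aa is lower in FtICD discs and higher in ft null complexes, and Cpr78E is lower in both.

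The ft null complexes also differed from their wild type in markers. The 5 haemocyte markers summed to 233 to 314 CPM in ft null and 64.4 to 83.4 CPM in wild type, with 5 called higher, and the 5 tracheal markers to 1719 to 1803 CPM in ft null and 959 to 1088 CPM in wild type, with 3 called higher. The 5 neuron markers summed to 999 to 1020 CPM in ft null and 1374 to 1506 CPM in wild type, with 5 called lower, and the 5 salivary gland markers to 3.11 to 11.2 CPM in ft null and 21.8 to 48.98 CPM in wild type, with 4 called lower. The 5 epidermal markers summed to 1514 to 1551 CPM in ft null and 1238 to 1402 CPM in wild type, with 3 called higher and 1 lower. None of these markers was at 0. Of 4 trunk Hox genes 4 were lower, of 5 wing disc markers 3 were lower and 0 higher, and of 5 eye markers 1 was higher and 3 lower. Of 14 ecdysone cascade regulators 3 were higher and 5 lower. Of 22 chitin genes 14 were higher and 0 lower in ft null (15 had an unadjusted p under 0.05), beside 23.5% and 21% of all genes. Among them were verm, a chitin deacetylase gene of the trachea (0.96 ± 0.06, adjusted p = 5.2e-05), and Gfat1 (0.96 ± 0.06, adjusted p = 5.1e-05). Their part in the Cpr results was not tested.

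Set side by side, 10 members were called in the same direction in at least 2 of the 4 genotype comparisons, each with its own wild-type libraries. Calls that repeat or go both ways were not counted over all genes, so no share stands beside these numbers. In embryos 26.7% of all genes tested were called higher and 25.8% lower, in wing discs 7.67% and 9.97%, and in ft null complexes 23.5% and 21%. Cpr11A and Cpr49Ah were higher in FtICD wing discs and in ft null complexes. Cpr97Ea was lower in FtICD embryos, FtICD wing discs and ft null complexes, the only member with 3 calls in 1 direction. Cpr67Fa1, Cpr49Ac, Cpr56F and Cpr66Cb were lower in both FtICD embryos and FtICD wing discs, Cpr31A and Cpr78E in FtICD wing discs and ft null complexes, and Cpr92A in both kinds of eye-brain complex. Called in both directions were 3 members. Cpr64Aa was lower in FtICD wing discs and higher in ft null complexes, Cpr56F was lower in FtICD embryos and wing discs and higher in ft null complexes, and Cpr92A was higher in FtICD embryos and lower in FtICD and ft null complexes. Without wild-type embryo replicate 3 or 4 the embryo call of Cpr56F was lost (adjusted p = 0.064 and 0.056). The wing calls of Cpr97Ea, Cpr66Cb and Cpr31A were also lost without some single libraries. So were the ft null calls of Cpr31A and Cpr11A and the FtICD eye-brain call of Cpr92A. Cpr56F and Cpr64Aa passed the count filter of the ft null comparison only through the ft null libraries.

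Whether the FtICD response itself differed between tissues was tested as an interaction. Between embryos and wing discs the response was more positive in embryos for 11 of 62 tested members and more negative for 10, beside 12.4% and 19.2% of all genes tested, whose median was -0.13. Without FtICD wing replicate 2 only 6 were more negative. Cpr65Ec differed (1.49 ± 0.20, adjusted p = 1.45e-04), with a log2 fold change of 0.13 ± 0.10 in embryos and -1.50 ± 0.20 in wing discs. Cpr67Fa2 differed the other way (-2.05 ± 0.25, adjusted p = 5.7e-05), being lower in FtICD embryos and at 0.63 ± 0.25 in wing discs, which did not pass. Its copy Cpr67Fa1 was lower in FtICD in both. Between embryos and eye-brain complexes the response was more positive in embryos for 3 of 63 tested members and more negative for 10, beside 14.2% and 16.6% of all genes. Without wild-type eye-brain replicate 2 only 5 were more negative. The smallest adjusted p among them was that of Cpr92A (6.79 ± 0.59, adjusted p = 2.2e-05), higher in FtICD embryos and lower in FtICD complexes.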

How the data were processed

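The 25 libraries used 10 ng of total RNA each and the SMARTer Ultra Low kit, and were read in pairs of 150 bases, per the labels' protocols. Embryos and the ft null set were run on a NovaSeq X Plus, and wing discs and the FtICD-set eye-brain complexes on a NovaSeq 6000, per the labels. The deposited values were taken as estimated counts for each gene, from their fractions and unequal totals. Salmon 1.80, Trimmomatic 0.33, FastQC 0.10, edgeR and the build dm6 are named in the submitters' processing notes, and how Salmon was used is not given in the sources used here. Fractional values made up 31.8% of those above 0 (19.0% for Cpr genes), and were rounded.

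Each comparison was fitted on its own libraries over all genes with edgeR 4.0.16 in R 4.3.3 (filterByExpr with a minimum count of 10, TMM, quasi-likelihood F test, two-sided, Benjamini-Hochberg, threshold 0.05). Differences of FtICD effects between tissues were interaction terms. Values after ± are SE for log2 fold changes and SD for levels. CPM use TMM over all libraries of a table, a scale that differs from the comparison's own by 0.10 (log2) between wild-type embryos and wing discs and by 0.21 between wild-type embryos and eye-brain complexes. In those 2 comparisons the median log2 fold change of all genes was 0.34 and 0.10. CPM per kb divide by the union of exons. The 28 pairs of libraries within groups were checked for duplicates, and the lowest chi-square per degree of freedom was 7.96.

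Members, lists and tests were chosen with earlier results of these data known. Members described singly were called members of at least 5 CPM with groups that did not overlap, the 8 most abundant per kb in each wild-type tissue, the extremes of each cluster of at least 4 genes, and members of repeated or interaction calls, and others were named after their values were seen. Alternatives were DESeq2 1.42.0, its size factors, no count filter, no ribosomal RNA genes, a replicate block and leaving out each library. The procedure was also run on simulated data, with the same spread for every gene. Far fewer genes were changed there than were called in the embryo and ft null comparisons, so that run does not test the procedure in their setting.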

Additional observations from a re-analysis of the deposited data

Results flagged for a closer look

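In 5 of 69 groups of 4 embryo libraries, over 40 members, 1 library stood far from the other 3, by the gap to its nearest neighbour divided by the range of the group. Chance flags about 1 in 20 groups, and all 5 libraries are replicate 1 of their group. In FtICD, replicate 1 was low for Cpr11A, with 106 CPM against 179 to 188 CPM in the other 3 (ratio 0.889). It was high for Cpr50Cb, with 74.7 CPM against 62.7 to 64.5 CPM (0.848), and for Cpr64Ac, with 23.2 CPM against 10.1 to 11.4 CPM (0.898). In wild type, replicate 1 was low for Cpr56F, with 740 CPM against 1042 to 1068 CPM (0.922), and high for Cpr65Eb, with 96.4 CPM against 76.5 to 78.3 CPM (0.909).

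The FtICD response differed between embryos and wing discs by an interaction test for the following members, given as the log2 fold change in embryos minus that in wing discs. The value was -4.22 for Cpr11A, -2.05 for Cpr67Fa2, 1.49 for Cpr65Ec and -2.38 for Cpr97Eb (-3.05 without wild-type wing replicate 1). It was 6.31 for Cpr97Ea, which had 0 counts in FtICD discs, and 8.90 for Cpr72Eb, which had 1 count both in FtICD discs and in wild-type embryos, so that these fitted values are no bounds. Without wild-type embryo replicate 4 the value of Cpr72Eb was 10.74, and without FtICD wing replicate 2 it was 10.48. The adjusted p of these 6 was at most 3.5e-04 by edgeR.

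Between embryos and eye-brain complexes the difference was 6.79 for Cpr92A, -1.52 for Cpr97Ea, -3.05 for Cpr64Ad and -3.095 for Cpr65Au, which had 6 and 4 counts in wild-type complexes. Without wild-type eye-brain replicate 2 it was -4.51 for Cpr64Ad and -4.00 for Cpr65Au, and without wild-type eye-brain replicate 1 it was -2.34 for Cpr64Ad. Cpr72Eb was at 5.40, with 1 count in wild-type embryos (7.20 without wild-type embryo replicate 4). Cpr50Cb was at -6.85, with 0 counts in wild-type complexes, and at -5.78 without FtICD eye-brain replicate 3. The adjusted p of these 6 was at most 4.9e-03 by edgeR.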

How the results depend on the processing

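Of 72 gene results, 59 kept their direction and their side of the threshold under every alternative run that gave them a value, 13 lost their call under at least 1, and 0 reversed. Without the count filter, with DESeq2's size factors inside edgeR and without ribosomal RNA genes, all counts of called members stayed within 1.5 times those reported. DESeq2 called 5 members higher in FtICD wing discs, and 3 higher and 4 lower in FtICD eye-brain complexes. Same-numbered libraries did not deviate together in every pair (correlations -0.32 to 0.31), and the labels do not say that a number marks shared material. The replicate block gave 1 member higher in FtICD eye-brain complexes, 3 lower in ft null complexes and 5 more positive in embryos than in eye-brain complexes. With it the embryo calls of Cpr35B (adjusted p = 0.062) and Cpr76Bc (0.071), the wing call of Cpr72Ea (0.127) and the ft null calls of Cpr73D (0.077) and Cpr31A (0.051) were lost. The cause of these shifts was not tested.

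Leaving out 1 library at a time, members higher and lower in FtICD numbered 12 to 16 and 18 to 23 in embryos, 2 to 4 and 8 to 10 in wing discs, and 0 to 0 and 0 to 1 in eye-brain complexes. In ft null complexes they numbered 6 to 7 and 3 to 5. Wild-type embryos had 48 to 54 higher and 7 to 7 lower members against wing discs, and 50 to 52 and 5 to 6 against eye-brain complexes, and wing discs had 12 to 14 and 2 to 3 against eye-brain complexes. Responses more positive and more negative in embryos numbered 8 to 12 and 6 to 10 against wing discs, and 2 to 4 and 5 to 13 against eye-brain complexes.

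Leaving out replicate 1 of both embryo groups, an alternative chosen after seeing the data, gave 14 higher and 25 lower. At these depths 31 to 34 members passed the count filter in the larval FtICD comparisons and 19 in the ft null one, and 8 members passed it in no genotype comparison.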
